A study of Drosophila melanogaster with 12 samples.

Results

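The Polycomb and trithorax group genes examined here are *Pc*, *ph-p*, *ph-d*, *Psc*, *Su(z)2*, *E(z)*, *esc*, *Scm*, *trx* and *ash1*. These 10 genes were chosen by name, and all 10 were among the 17592 gene symbols that occurred in every RNA-Seq library. They were measured in second (T2) pupal legs of *D. melanogaster* aged 20 to 28 hours after puparium formation (hAPF) at 25 °C, in a study of the naked valley, a patch of the femur that lacks trichomes. The strain eworo carries the alleles *ebony*[4], *white ocelli*[1] and *rough*[1] and has a large naked valley, whereas Oregon R (OreR), a wild-type laboratory strain, has a small one. Each strain gave 3 RNA-Seq libraries and 3 ATAC-Seq samples, and the legs of many pupae were pooled in each. The marker alleles and the genetic background of eworo cannot be told apart, because each strain is a single stock. In whole legs, fewer cells of a type and less RNA per cell cannot be told apart either.

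Polycomb and trithorax proteins maintain the silent or active state of developmental genes such as the Hox genes through cell divisions. Polycomb repressive complex 2 (PRC2) methylates a lysine of histone H3, and Polycomb repressive complex 1 (PRC1) contains a subunit that binds this mark. Trithorax group proteins counteract the silencing, several of them by methylating other lysines of the same histone. In legs these genes are best known for keeping the Hox genes of other segments off, and males heterozygous for a *Pc* mutation grow extra sex combs on the more posterior legs.

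All 10 genes were expressed in T2 legs above 1 FPKM (fragments mapped to a gene, corrected for the length of its transcripts and for library size), the cut-off for expression used in the study. The authors' pooled value per strain, which lists every member separately, ran from 4.06 FPKM for *esc* to 18.6 FPKM for *E(z)* in eworo, a 4.59-fold range. In OreR it ran from 3.88 FPKM for *esc* to 21.9 FPKM for *Scm*, a 5.65-fold range. *E(z)*, *Scm*, *trx* and *Pc* held the first 4 places in both strains, and *esc* held the last. Of the genes with an entry of their own in every library, *E(z)* (18.7 to 25.9 FPKM) lay above *Psc* (5.04 to 11.05), *ash1* (4.20 to 8.24), *Su(z)2* (3.21 to 7.03) and *esc* (3.34 to 5.06) in all 6 libraries. *Psc* also exceeded *ash1* in each of the 6. The ranges of neighbours among these last 4 overlapped over all libraries, and the values of *trx* (3.90 to 27.3 FPKM) overlapped all the others. No member passed the threshold for a difference between the strains, and among those with comparable entries only the libraries of *esc* did not overlap between strains. Of the 4848 entries compared with limma, 2.64% passed an adjusted p of 0.05 (1.73% higher and 0.908% lower in eworo), and none of the 7 member entries in that comparison did. None of the 7 had an unadjusted p under 0.05, which 740 of all entries had.

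The libraries were checked before the members were compared. Cufflinks built its gene models separately in each library and gave some neighbouring genes a joint entry, so some members have no value of their own in some libraries. Markers of leg epidermis were above 1 FPKM in both strains for 10 of 10 genes, as were 15 of 16 muscle, 6 of 12 neuronal, 5 of 5 tracheal, 7 of 8 fat body and 9 of 10 haemocyte markers. These counts include joined entries, which carry the value of a neighbour. Comparable entries above 1 FPKM on average existed for 7 muscle, 4 neuronal, 1 tracheal, 6 fat body and 3 haemocyte genes. The presence of these other tissues in the legs rests on these fewer genes. The summed FPKM of the muscle list ran from 534 to 1071 in eworo and from 684 to 956 in OreR. That of the haemocyte list ran from 126 to 263 and from 136 to 560, so the sums overlapped between the strains. The sums count a joined value once for every listed gene in the entry. *Tm1* and *Tm2*, for example, both read 288 FPKM in eworo replicate 2, whereas *Tm2* read 5.52 FPKM in eworo replicate 1. Of the 7 muscle genes with comparable entries none passed the threshold, 5 were fitted below 0 and the median log2 difference was -0.61, the direction also fitted for most members. *Act87E*, the most highly expressed of the 7, went the other way, at 0.30. *Act88F*, also among the 7, was listed at 0 in replicate 2 of each strain, and the part of muscle in the members' values was not tested. Long genes behaved differently from short genes in single libraries. Entries with a gene span of 20000 bp or more lay below their 6-library mean by a median of -0.52 on the log2 scale in eworo replicate 1 and of -0.15 in eworo replicate 3, whereas they lay above it by 0.24 in eworo replicate 2 and by 0.33 in OreR replicate 3. Entries under 2000 bp had a median deviation of 0.22 in eworo replicate 1.

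The PRC2 members *E(z)* and *esc* varied least between libraries of the 9 member entries. *E(z)* (3L:10634575-10638130), the histone methyltransferase of the complex, was at 25.9, 22.5 and 18.7 FPKM in eworo replicates 1 to 3 and at 24.8, 24.5 and 24.4 FPKM in OreR. The OreR libraries were nearly equal, and the eworo libraries lay on both sides of them. The difference of the means, 22.4 ± 3.64 against 24.6 ± 0.243 FPKM (SD, n = 3), corresponded to a log2 difference of -0.14 (SE 0.13, adjusted p = 0.591 by limma). Here and below, log2 differences are eworo minus OreR on the scale of log2(FPKM + 1), which understates changes of low genes. *esc* (2L:11827204-11829405), whose WD-repeat protein binds E(z), was the lowest member, at 5.06, 4.19 and 4.18 FPKM in eworo and at 3.34, 3.64 and 3.98 FPKM in OreR. Every eworo library was above every OreR library, though the upper confidence limits of Cufflinks lay 10.3% to 13.9% above the values. The limits of eworo replicate 3 (3.75 to 4.61 FPKM) and OreR replicate 3 (3.48 to 4.48 FPKM) overlapped. The authors' pooled values of *esc*, 4.06 FPKM in eworo and 3.88 FPKM in OreR, lay closer together than the means. The means were 4.48 ± 0.507 and 3.65 ± 0.318 FPKM (SD, n = 3), and the log2 difference was 0.24 (SE 0.14, adjusted p = 0.447 by limma). An exact two-sided permutation test gave p = 0.1, the smallest value that 3 libraries against 3 allow. Libraries did not overlap for 23.2% of all entries compared, and 12.9% of all entries were higher in eworo in this way, as *esc* was. *esc* was the only member entry fitted above 0. The ratio of *E(z)* to *esc* was 5.12, 5.37 and 4.47 in eworo and 7.43, 6.73 and 6.13 in OreR. It was lower in every eworo library (exact permutation p = 0.1, and 0.3 adjusted over the 3 ratios computed, all chosen after the values were seen). This is a ratio of RNA values of 2 genes and does not give the make-up of PRC2 in these legs. It also leaves out *escl*, a further Polycomb group gene that had no comparable entry.

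**Figure D1:**
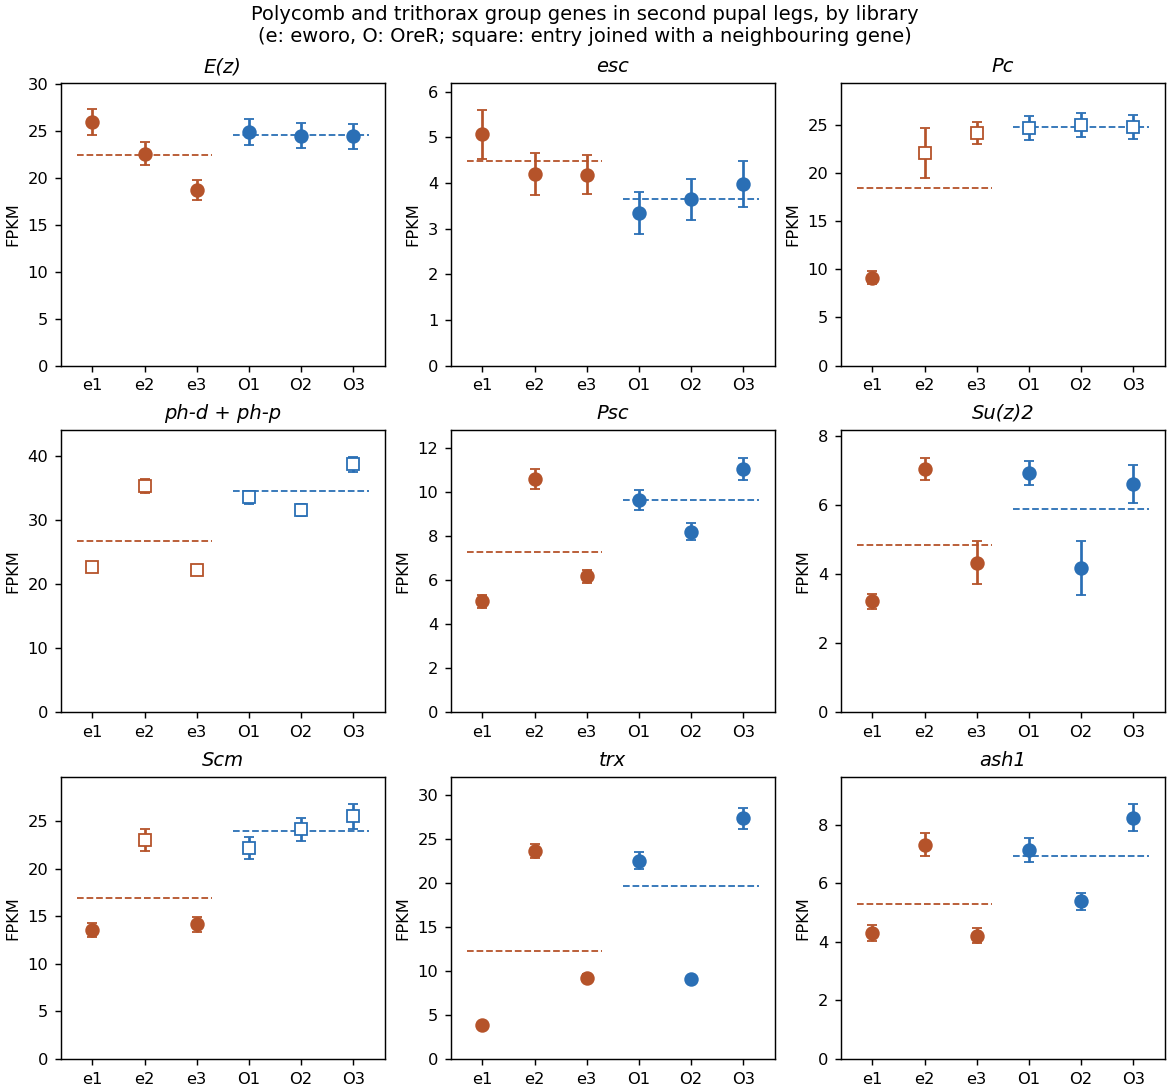
FPKM of each member entry in the 3 eworo (e1 to e3) and the 3 OreR (O1 to O3) libraries, with the confidence limits of Cufflinks as bars and the mean of each strain as a dashed line. Open squares are entries joined with a neighbouring gene, so that *Pc* reads 9.16 FPKM alone in e1 and 22.2 to 25.0 FPKM together with *CG11309* elsewhere, and *trx* spreads from 3.90 to 27.3 FPKM.

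Of the PRC1 members, *Psc*, *Su(z)2* and the *ph* entry had their lowest eworo values in replicates 1 and 3. *Psc* (2R:12965997-12980994), a RING finger subunit that compacts chromatin, was at 5.04, 10.6 and 6.17 FPKM in eworo and at 9.67, 8.21 and 11.05 FPKM in OreR. Replicates 1 and 3 of eworo were below all OreR libraries and replicate 2 was among them. Its log2 difference was -0.41 (SE 0.28, adjusted p = 0.492 by limma). *Su(z)2* (2R:12996501-13007911), a paralogue of *Psc* that lies next to it at a distance of 15506 bp, was at 3.21, 7.03 and 4.32 FPKM in eworo and at 6.91, 4.17 and 6.60 FPKM in OreR. Here OreR replicate 2 fell among the low libraries as well, so the strains overlapped, and the log2 difference was -0.26 (SE 0.31, adjusted p = 0.649 by limma). *Psc* exceeded *Su(z)2* in all 6 libraries, by 1.43-fold to 1.57-fold in eworo and 1.40-fold to 1.97-fold in OreR (exact permutation p = 0.5 for the ratio between strains). The upper confidence limit of Cufflinks lay 4.40% to 5.66% above the value for *Psc* and up to 18.7% above it for *Su(z)2*.

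*ph-p* (X:2126210-2138371) and *ph-d* (X:2115727-2123286) are tandem duplicates that encode the Polyhomeotic subunits of PRC1, proteins with a SAM domain. They share much of their sequence, so the division of reads between them is uncertain, and Cufflinks joined them in all 6 libraries. The joined entry was at 22.7, 35.3 and 22.2 FPKM in eworo and at 33.6, 31.6 and 38.7 FPKM in OreR. As for *Psc*, eworo replicates 1 and 3 were below every OreR library and replicate 2 was above OreR replicates 1 and 2. The log2 difference was -0.38 (SE 0.21, adjusted p = 0.411 by limma), the smallest adjusted p among the 7 entries. The authors' pooled values put *ph-p* at 8.15 in eworo and 11.3 in OreR, and *ph-d* at 8.35 and 10.8 FPKM. The sum of both, 16.5 and 22.1 FPKM, was below the joined value of every library of the same strain, and the cause was not tested.

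*Pc* (3L:21306138-21318020), the chromodomain subunit that binds the mark made by PRC2, had an entry of its own in a single library. It was at 9.16 FPKM in eworo replicate 1, and the joined entry of *CG11309* and *Pc* was at 22.2 and 24.2 FPKM in the other eworo libraries and at 24.7, 25.0 and 24.8 FPKM in OreR. The low value thus coincided with the library in which the entries were not joined. The authors' pooled values were 10.0 FPKM in eworo and 11.5 FPKM in OreR for *Pc* and 15.5 and 12.7 FPKM for *CG11309*, and the sums of 25.6 and 24.2 FPKM were close to the joined values. *Pc* was left out of the comparison for this reason, and the difference obtained when each gene of a joined entry takes its value (log2 difference -0.53, SE 0.38, adjusted p = 0.605 by limma) is not one of *Pc* alone.

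*Scm* (3R:9633359-9637611), whose protein has MBT repeats and a SAM domain and associates with PRC1, was joined with the antisense RNA *CR45053* in 4 libraries. It was at 13.6, 23.1 and 14.2 FPKM in eworo and at 22.2, 24.1 and 25.5 FPKM in OreR, and the entry was *Scm* alone in eworo replicates 1 and 3. The values of the unjoined libraries were again the lowest. Here the partner was small, at 0.560 and 0.721 FPKM in the authors' pooled values against 17.2 and 21.9 FPKM for *Scm*. The difference with joined entries had a log2 value of -0.52 (SE 0.24, adjusted p = 0.453 by limma, exact permutation p = 0.2). This reading called 1.86% of 9555 genes, and neither *Pc* nor *Scm* was called.

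Of the members, *trx* varied most between libraries. *trx* (3R:14263358-14286903), a histone methyltransferase related to human MLL proteins, was at 3.90, 23.7 and 9.24 FPKM in eworo and at 22.5, 9.12 and 27.3 FPKM in OreR. The libraries of *trx* fell into low values (eworo replicates 1 and 3 and OreR replicate 2) and high values, and both strains had some of each. The highest library was 7.01-fold above the lowest, whereas the confidence limits of Cufflinks reached at most 4.71% above a value. The SD of its log2 values over the 6 libraries (0.99) was larger than that of 85.5% of all entries and of 89.6% of entries with a span of 10000 bp or more. Its log2 difference was -0.81, the largest in size of the 7, and also the least certain (SE 0.70, 95% confidence interval -2.56 to 0.94, adjusted p = 0.562 by limma). *ash1* (3L:19590773-19598755), another histone methyltransferase of the group, was at 4.32, 7.31 and 4.20 FPKM in eworo and at 7.14, 5.38 and 8.24 FPKM in OreR. The same 3 libraries were low, over a narrower 1.96-fold range. The log2 difference of *ash1* was -0.35 (SE 0.25, adjusted p = 0.513 by limma). Cuffdiff listed a second entry for *ash1* at 0.197 and 0.457 FPKM beside the main one at 4.98 and 6.63 FPKM. The ratio of *trx* to *ash1* ranged from 0.904 to 3.23 in eworo and from 1.69 to 3.32 in OreR (exact permutation p = 0.6).

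Between them, 6 of the 7 member entries were fitted below 0, with a median log2 difference of -0.35, beside 51.4% of all entries fitted below 0 and a median of -0.01. Other lists also lay mostly below 0: leg epidermis (7 of 7, median -0.39), neurons (4 of 4, -0.25) and cell cycle (9 of 11, -0.20). Fat body (3 of 6, median 0.09) and haemocytes (1 of 3, 0.05) did not. The direction was thus not particular to the members. In the authors' pooled values, 9 of 10 members were lower in eworo, with OreR 1.05-fold (*E(z)*) to 1.55-fold (*trx*) higher. The share of all genes that were lower in eworo was not computed for the pooled values, so this count has no background beside it. These values derive from the same libraries and are not independent of the fit. The low eworo values came from replicates 1 and 3. These were left out together as a description chosen after their low values were seen, which had to raise the eworo mean of the entries that were low in them. Without them the log2 difference was 0.04 for the *ph* entry, 0.14 for *Psc*, 0.25 for *Su(z)2*, 0.39 for *trx* and 0.09 for *ash1*, so the direction turned for 5 of the 7 entries (adjusted p = 0.917 to 0.967 by limma, with the remaining eworo library assumed to vary like those of OreR). *E(z)* and *esc* kept their direction. With the trend of each library against gene span removed, the log2 difference was -0.16 for the *ph* entry, -0.22 for *Psc*, -0.10 for *Su(z)2*, -0.58 for *trx*, -0.23 for *ash1*, -0.14 for *E(z)* and 0.13 for *esc*, so all 7 kept their direction and 5 of them were more than 1.5 times smaller.

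**Figure D2:**
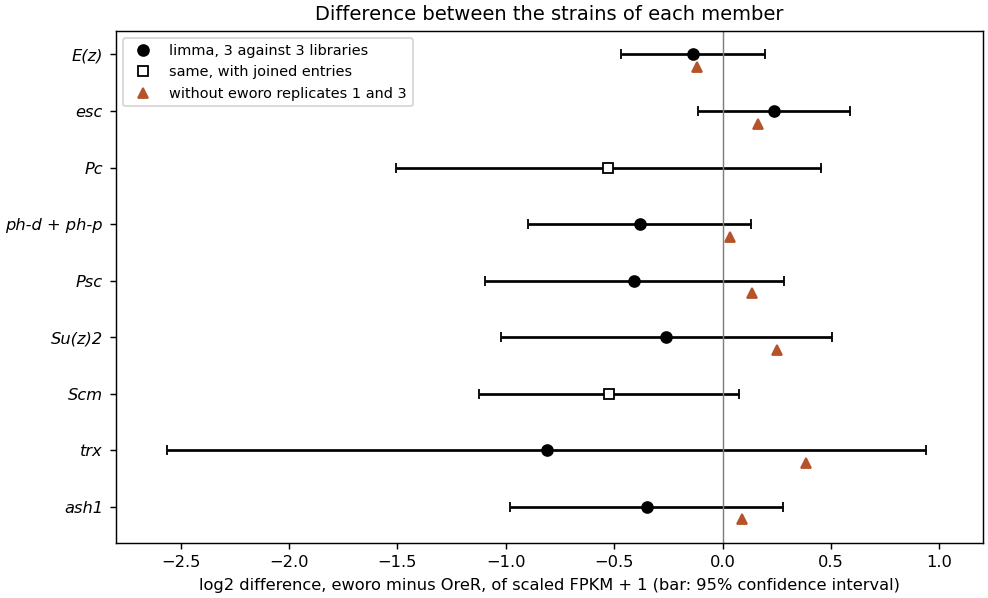
Log2 difference (eworo minus OreR) of each member, with 95% confidence intervals from limma, and as triangles the same difference without eworo replicates 1 and 3. Every interval includes 0, from the narrow one of *E(z)* (-0.47 to 0.19) to the wide one of *trx* (-2.56 to 0.94), and 5 triangles lie on the other side of 0 from their points.

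The members fell into the same library pattern to different degrees. Over the 6 libraries, the 10 pairs among the *ph* entry, *Psc*, *Su(z)2*, *trx* and *ash1* had Pearson r between 0.83 and 0.98, highest for *Su(z)2* with *trx*. *E(z)* stood apart from these 5 (r from -0.05 to 0.37) and *esc* ran against them (r from -0.65 to -0.53). The 5 were grouped by the low libraries described above and not beforehand, which favours high r among them and low r with the others. These correlations describe n = 6 libraries in which all members share the depth and composition of the library, and no test was made. Replicate 1 of eworo was the lowest library for 3 of the 7 member entries (25.0% of all entries), replicate 2 was the highest eworo library for 5 (33.4% of all entries), and OreR replicate 2 was the lowest OreR library for 5 (31.9% of all entries).

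The 5 entries spanned 7983 bp (*ash1*) to 23546 bp (*trx*), and *E(z)* and *esc* spanned 3556 and 2202 bp. *Scm*, read with its joined entries, was short as well (4253 bp) and yet followed the long members, with r of 0.97 to the *ph* entry, 0.93 to *Psc*, 0.87 to *ash1*, 0.79 to *trx* and 0.73 to *Su(z)2*. After removal of the library-wise trend with gene span, the SD over the 6 libraries dropped from 0.32 to 0.14 for the *ph* entry, from 0.40 to 0.20 for *Psc*, from 0.39 to 0.24 for *Su(z)2* and from 0.35 to 0.24 for *ash1*. For *trx* it remained at 0.74, from 0.99, and for *E(z)* (0.16 to 0.15) and *esc* (0.17 to 0.13) it hardly moved. Whether span itself, RNA quality or another property that differs between long and short genes underlies this was not tested. Of 3387 single-gene entries outside the lists, those most like the mean profile of the 7 entries were *mys* (r = 0.997 over 6 libraries), *kon* (r = 0.996) and *Np* (r = 0.994). *mys* and *kon* encode proteins of cell adhesion and *Np* a protease, and 268 entries in all had r above 0.9.

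**Figure D3:**
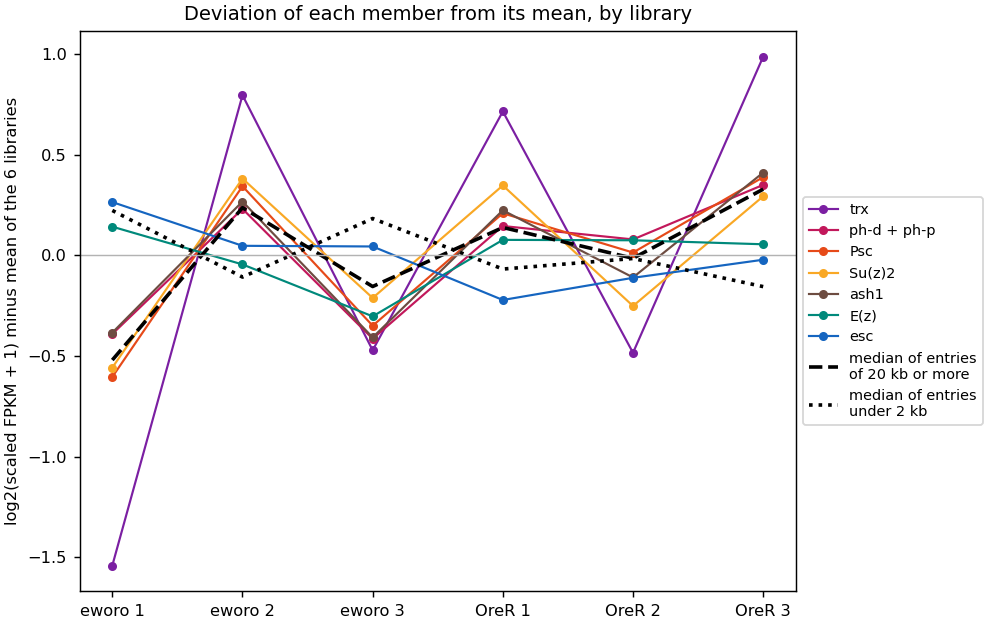
Deviation of the log2 value of each member from its mean over the 6 libraries, with the medians of all entries of 20000 bp or more (dashed) and under 2000 bp (dotted); lines join the values of a gene and imply no order of libraries. The 5 longer members lie on the same side of 0 as the dashed line in every library but OreR 2, though not at the same distance. In OreR 2 the dashed line is at -0.01 and *trx* at -0.48. In eworo 1 *trx* is at -1.54 against -0.52 for the dashed line, and *esc* is at 0.26 against 0.22 for the dotted line. *Psc*, *Su(z)2* and *ash1* span less than 20000 bp.

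Further genes of the same complexes were read in the same fit. Of 23 further Polycomb group genes found, all 23 were above 1 FPKM in both strains, and 11 had an entry comparable in all libraries. The count of 23 includes joined entries, which carry the value of a neighbour. None of the 11 passed the threshold, none had an unadjusted p under 0.05, 10 were fitted below 0, and the median log2 difference was -0.40. This median was -0.23 without eworo replicate 1, -0.19 without eworo replicate 3, -0.22 without OreR replicate 3, -0.20 with the span trend removed and -0.10 with joined entries. It was -0.57 without eworo replicate 2 and -0.55 without OreR replicate 2. Without eworo replicates 1 and 3, left out together after the data were seen, it was -0.02. The most highly expressed of them were *Caf1-55*, the histone-binding WD-repeat subunit of PRC2, at 83.2 ± 16.5 FPKM in eworo and 87.1 ± 2.53 in OreR, and *Sce*, the ubiquitin ligase of PRC1, at 61.0 ± 9.14 and 51.6 ± 5.15 FPKM (SD, n = 3). They were followed by *sxc*, an O-GlcNAc transferase, at 30.9 ± 12.4 and 40.2 ± 13.1 FPKM, and *Kdm2*, a histone demethylase, at 24.6 ± 6.91 and 30.3 ± 1.38 FPKM. *Caf1-55* exceeded its partners *E(z)* and *esc* in every library.

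Of 34 further trithorax group genes found, 33 were above 1 FPKM in both strains, again with joined entries counted. *Bap111*, a subunit of the Brahma remodelling complex, was listed at 0 in all 3 OreR libraries and in eworo replicate 2, and at 68.7 and 43.8 FPKM in eworo replicates 1 and 3. A value of 0 in these files can be a failed estimate, and no fold is given. Of the 17 genes compared none passed the threshold or had an unadjusted p under 0.05, 14 were fitted below 0, and the median was -0.27. It was -0.08 without eworo replicate 1, -0.16 without OreR replicate 3, -0.41 without OreR replicate 2, -0.14 with the span trend removed and 0.05 without eworo replicates 1 and 3. The highest were *mor*, a scaffold subunit of the Brahma complex, at 73.7 ± 4.64 FPKM in eworo and 77.1 ± 3.13 in OreR, and *Dpy-30L1*, a subunit of the methyltransferase complexes of Trx and its relatives, at 60.5 ± 9.26 and 50.9 ± 5.76 FPKM (SD, n = 3). They were followed by *vtd*, a cohesin subunit, at 45.7 ± 9.87 and 55.0 ± 9.23 FPKM, and *ash2*, another subunit of those complexes, at 44.8 ± 5.37 and 48.8 ± 4.45 FPKM. *mor* varied little between libraries. *osa*, which encodes another Brahma subunit and was named after its values were seen, went from 7.09 FPKM in eworo replicate 1 to 37.1 FPKM in OreR replicate 3.

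Hox and segment polarity selector genes are the classical targets of these proteins. Of 10 such genes, *lab*, *pb*, *Dfd*, *abd-A* and *Abd-B* were at or below 0.109 FPKM in every library of either strain, whereas *Scr*, *Antp*, *Ubx*, *en* and *inv* had means above 1 FPKM in both strains. Comparable entries existed for *en*, *Scr* and *Ubx*, whereas the means of *Antp* and *inv* include joined entries, which carry the value of a neighbour. *en*, a selector of posterior compartments, was at 20.5, 22.5 and 23.3 FPKM in eworo and at 29.5, 33.8 and 29.4 FPKM in OreR, so the strains did not overlap, as for 10.4% of all entries in this direction. The log2 difference of -0.46 (SE 0.10, unadjusted p = 0.00549) did not pass the correction (adjusted p = 0.116 by limma). *Scr* was at 8.69 ± 3.43 FPKM in eworo and 10.2 ± 4.05 in OreR (SD, n = 3). *Ubx*, the Hox gene that represses leg trichomes, was at 3.96 and 8.67 FPKM in eworo replicates 1 and 2, was listed at 0 in replicate 3, and was at 12.6, 5.77 and 8.04 FPKM in OreR.

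Cell cycle genes were compared because Polycomb and trithorax states are passed on through divisions. Of 16 found, 11 had comparable entries, and none of these passed the threshold. An unadjusted p under 0.05 by limma was found for 2 of the 11, beside 740 of all 4848 entries. Of the 11, 9 were fitted below 0, and the median log2 difference was -0.20, or -0.13 with values of 0 taken as missing. *stg*, the phosphatase that drives entry into mitosis, was highest at 182 ± 7.38 FPKM in eworo and 199 ± 10.6 in OreR, followed by *Cdk1*, its substrate, at 123 and 110 FPKM in eworo replicates 1 and 3, 0 in replicate 2 and 110, 102 and 118 FPKM in OreR. *PCNA*, the replication clamp, was at 58.5 ± 11.96 and 78.9 ± 9.26 FPKM and *CycA* at 66.7 ± 3.18 and 63.7 ± 4.32 FPKM (SD, n = 3).

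Open chromatin at the members was read from the ATAC-Seq peak lists, which hold 1 list per strain called on pooled reads (44398 peaks from 53862732 tags after filtering in eworo and 42015 peaks from 56972082 in OreR). Because the samples of a strain were pooled, these values have no replicate error and no test was made. Each gene span was extended by 2000 bp at both ends. Together the 10 members had 71 distinct peaks in eworo and 74 in OreR, between 3 at *esc* and 13 at *trx* in eworo and between 3 at *Scm* and 14 at *trx* in OreR. Of these, 63 in eworo (88.7%) and 68 in OreR (91.9%) overlapped a peak of the other strain by at least 1 bp, beside 81.7% and 86.6% of all peaks. Counts per member were near those of genes of similar span. *ph-p*, with 10 and 11 peaks against a median of 7 in both strains, lay above 74.1% and 84.3% of such genes, whereas *Scm*, with 4 and 3 peaks against a median of 4, lay above 35.4% and 24.6%.

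A peak lay over an end of the gene span for 9 of the 10 members in both strains, beside 50.2% of 13922 protein-coding genes in eworo and 48.5% in OreR. These shares take in genes of any expression, whereas all 10 members were expressed, so the comparison is not matched for expression. It was the end of higher coordinate for 8 of them and that of lower coordinate for *Su(z)2*, and no member had a peak over both ends. The exception was *ph-p*, whose nearest peaks were at X:2138007-2138285 and X:2138570-2138678 in eworo, on either side of its end at 2138371. Peaks with a high fold over local background lay at the ends of *esc* (2L:11829328-11829528, 3.58-fold in eworo and 3.18-fold in OreR) and *Pc* (3L:21317952-21318157, 3.33-fold in eworo and 2.99-fold in OreR), and inside *E(z)* close to its end (3L:10637819-10637954, 3.16-fold and 3.19-fold). By this measure they were higher than 99.6%, 97.9% and 95.4% of all eworo peaks. A peak beyond the lower end of *Pc*, beside *CG11309* (3L:21304604-21304772), reached 3.28-fold in eworo and 3.03-fold in OreR. By fold, the highest peak at any member was that of *esc* in eworo. In OreR it was that of *E(z)* at 3.19-fold, nearly tied with *esc* at 3.18-fold. *esc* was the member of lowest pooled expression in eworo, and *E(z)* that of second highest in OreR. *Psc*, with peaks of 1.64-fold to 2.42-fold in eworo, had the lowest maximum fold there, and *trx*, with 1.76-fold to 2.24-fold, had the lowest in OreR. The order by read pileup was different. The highest pileup was 89 at *Psc* in eworo and 88 at *ph-p* in OreR, against 83 at *esc* in both strains.

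The long members also had peaks inside the gene, and these were unevenly placed. At *trx* all 11 summits within the gene in eworo and all 12 in OreR lay on the side of the gene's midpoint that held the end with a peak, as far as 10931 bp from that end in eworo. At *Psc* 6 of 8 summits in eworo and 5 of 8 in OreR lay on that side, and at *Su(z)2*, whose lower end had the peak, they were spread over both sides. *ph-p* had a row of peaks towards its end of higher coordinate, where 6 of 7 summits inside the gene lay beyond its midpoint in eworo and 8 of 8 in OreR. The 2923 bp between *ph-d* and *ph-p* held peaks at X:2123154-2124018, X:2124313-2124764 and X:2125528-2125872 in eworo, each matched in OreR. *ash1* had strong peaks near both ends, one of them (3L:19590470-19590747, 3.03-fold in eworo and 2.87-fold in OreR) ending just outside the span. At *Pc* the peaks beyond the lower end (5 in eworo, 3 in OreR) lay at and next to the end of *CG11309*, the gene with which *Pc* was joined in the RNA-Seq.

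**Figure D4:**
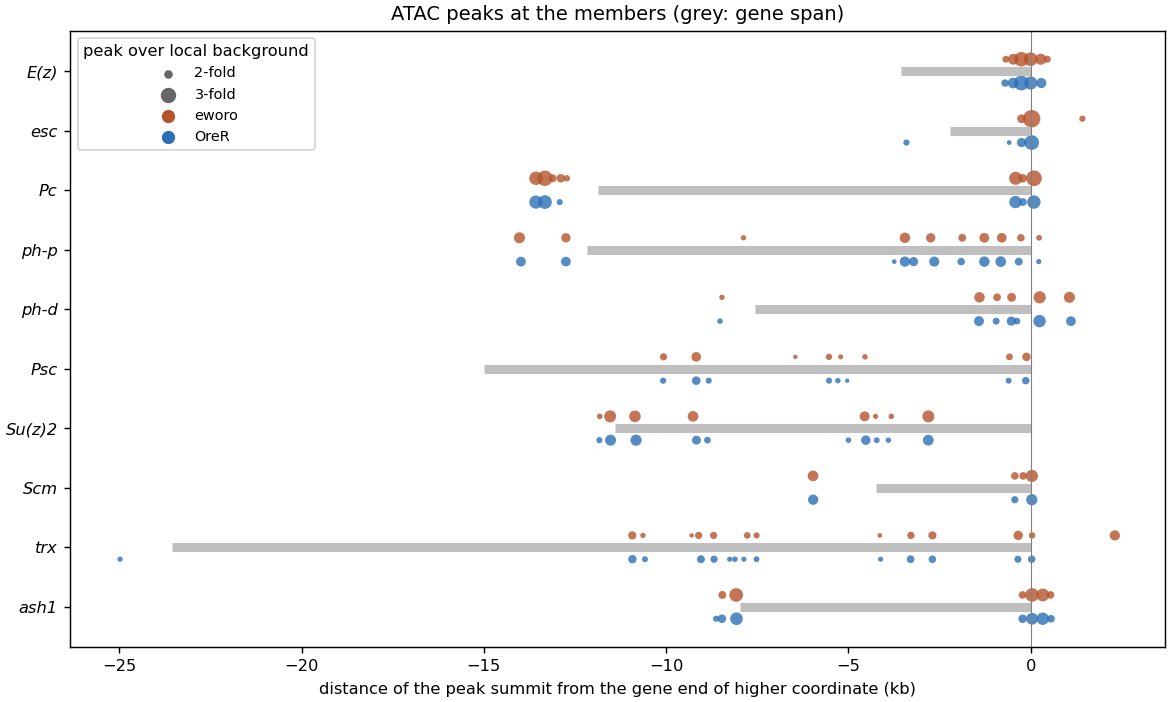
Summits of ATAC peaks in eworo and OreR at each member, as the distance in kb from the gene end of higher coordinate; grey bars are gene spans, and symbol area grows with the fold over local background. Summits crowd at 0 for *E(z)*, *esc*, *Scm* and *ash1*, the 11 (eworo) and 12 (OreR) summits inside *trx* lie to the right of its midpoint, and both strains have nearly the same positions.

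Peak heights at the members were compared as ratios between the strains. For 56 pairs of overlapping peaks with 1 partner each, the log2 ratio of fold over background, eworo to OreR, had a median of 0.03 and ran from -0.10 to 0.25, beside a median of 0.06 and a range from the 5th to the 95th percentile of -0.13 to 0.24 over 32644 pairs of the whole genome. By gene the median ranged from -0.04 at *ph-p* to 0.10 at *Pc*. At *trx*, where the RNA-Seq values of single libraries differed most, it was -0.02 over 11 pairs. The pileup behind these ratios keeps at most 1 tag per position and strand and cannot exceed 100, so the tallest peaks are compressed. At the members it reached 89, at *Psc* in eworo.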

How the data were processed

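The authors aligned the stranded RNA-Seq reads with TopHat2 2.1.1 to Release 6 of the genome and deposited FPKM per gene and library from Cufflinks 2.2.1, not scaled between libraries. Pooled FPKM per strain are from the deposited Cuffdiff table, whose fold changes and p-values were not used. Of the deposited ATAC-Seq peak lists (MACS2 2.1.1.20160309, no control) the signal (pileup), the ratio (fold over local background) and the -log10 of the q-value were used.

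FPKM were divided by median-of-ratios factors (0.998 to 1.01) and compared as log2(FPKM + 1) with limma 3.58.1 (R 4.3.3, trended variance, strain as the only term), over entries of the same name in all 6 libraries with a mean above 1 FPKM, with Benjamini-Hochberg adjustment over all of them. The fit and the overlap of peaks were tested on simulated data. Permutation tests used Python 3.11.15 with scipy 1.17.1, numpy 2.4.6 and pandas 2.3.3, and figures matplotlib 3.10.9. Precision within a library is given by the confidence limits of Cufflinks. Per the study's methods, each replicate was dissected from its own pool of pupae.

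Members and lists were chosen with earlier results of these data known. All members were named, and of each further list up to 4 genes with comparable entries, called genes before others and otherwise in order of mean FPKM; *osa* and *Bap111* were added after their values were seen. Positions are from RefSeq for Release 6, without strand, so both ends of a gene span were examined in place of its start.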

Additional observations from a re-analysis of the deposited data

How the results depend on the processing

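Alternatives changed the pseudocount (0.1 or 5), the filter, the scaling, joined entries, values of 0, the span trend, the replicate block, the variance trend and the libraries. Across 139 alternative fits of the 9 member differences none passed the threshold (adjusted p = 0.0698 to 0.967 by limma), and 134 kept their direction. The 5 that reversed were those without eworo replicates 1 and 3, chosen after seeing the data, at 0.037 for the *ph* entry, 0.14 for *Psc*, 0.25 for *Su(z)2*, 0.39 for *trx* and 0.090 for *ash1*; the cause was not tested. The ratio of *trx* to *ash1* reversed without eworo replicate 1 (log2 difference 0.031, range -0.89 to 0.031). With single libraries left out, the log2 difference ranged from -0.60 to -0.27 for the *ph* entry, -0.68 to -0.21 for *Psc*, -0.52 to -0.04 for *Su(z)2*, -1.41 to -0.24 for *trx*, -0.57 to -0.23 for *ash1*, -0.24 to -0.02 for *E(z)* and 0.17 to 0.28 for *esc*, and with joined entries from -0.76 to -0.10 for *Pc* and -0.76 to -0.39 for *Scm*.

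Over all entries, 84 higher and 44 lower in eworo became 47 and 24 with a mean above 5 FPKM, 14 and 13 with the replicate block, and 37 to 93 and 23 to 60 when single libraries were left out (44 and 28 without eworo replicate 1, 37 and 23 without eworo replicate 3, 45 and 29 without OreR replicate 1, 43 and 24 without OreR replicate 3); without eworo replicates 1 and 3 there were 37 higher, and with joined entries 70 lower. Same-numbered libraries of the strains had deviations correlated at -0.04, -0.11 and 0.05. These values show no sign of a pairing by number, but they cannot exclude a batch shared by such libraries. No member was called with the block, and none was called without it, so the block does not bear on this question. List counts stayed at 0, except 1 cell cycle gene without eworo replicates 1 and 3. With peaks of -log10 q of at least 10 only, members had 24 peaks in eworo and 18 in OreR, of which 18 in each overlapped one of the other strain, and 7 and 6 members had a peak over an end; no peak at *Psc* was left. All 10 members had a peak within 250 bp of an end in both strains. With 500 bp on both sides 61 and 64 peaks remained, and with an overlap of at least 0.5 of each peak 56 and 55 were shared.

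The FPKM do not separate joined genes, 3 libraries per strain cannot give an exact p under 0.1, and low genes are compressed by the added 1. Peaks were called on pooled samples, so differences between strains at the members could not be tested.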
